A study of Mus musculus with 87 samples.

Results

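The clustered protocadherins are the neighbouring cell-surface genes of the alpha, beta and gamma protocadherin clusters. Every gene symbol was taken that consists of Pcdh, a cluster code (a, ac, b, ga, gb or gc) and a number. This gave 58 of the 26171 genes listed in each of 13 RNA-seq comparison tables: 14 alpha, 22 beta and 22 gamma genes. All 58 lie on mouse chromosome 18. In the RefSeq annotation of GRCm38.p6 (mm10), the alpha cluster runs from 36930285 to 37188897, the beta cluster from 37264998 to 37521419, and the gamma cluster from 37661775 to 37841873. RefSeq lists Pcdhgb8 as a pseudogene. No sequences of these genes are shown here.

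Clustered protocadherins are cadherin-like adhesion proteins that bind copies of themselves on neighbouring membranes, and the different combinations that single neurons express help their branches tell self from non-self. Each alpha and gamma gene is a first exon with a promoter of its own that is spliced to constant exons shared by its whole cluster, whereas each beta gene is a single exon without a constant part. CTCF and cohesin take part in choosing the promoters, DNA methylation keeps the unchosen ones silent, and the C-type genes at the ends of the alpha and gamma clusters are used more broadly than the others. Polycomb repressive complex 2 (PRC2), of which Suz12 is a core subunit, places the repressive histone mark H3K27me3.

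The study asked how alternative splicing of Suz12 exon 4 affects PRC2, in a mouse embryonic stem cell line (129-B13) and in neuronal precursors (NP) derived from it. Embryonic stem cells (ESC) were grown in 20% serum with LIF. NP were seeded at day 0, given retinoic acid from day 4 and harvested at day 8. Of the 87 samples, 32 were RNA-seq libraries and 55 were ChIP-seq libraries. The RNA groups were WT (3 ESC and 4 NP libraries), CSex4, in which exon 4 is constitutively included (2 and 2), Deltaex4, in which exon 4 is deleted (2 and 2), and KO, a full Suz12 knock-out (3 and 2). KO-L and KO-S (2 and 2 each) carry the long or the short Suz12 isoform put back at the Rosa26 locus of KO cells. KO-L3D and KO-S3D (2 ESC libraries each) are the corresponding rescues with a 3D mutation at position 196. All groups share 1 parental line, and the number of clones per genotype was not given in the sources used here. The labels do not say that libraries of a group came from separate cultures, so p-values may measure technical spread alone.

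Suz12 itself fell in KO in both cell types by the authors' deposited tables. Its log2 fold changes were -1.82 ± 0.22 (SE) for ESC and -2.14 ± 0.33 for NP. In ESC it was also called lower than WT in KO-L (-1.05 ± 0.28), KO-S (-0.83 ± 0.27) and KO-L3D (-1.85 ± 0.28). It was not called in KO-S3D (-0.06 ± 0.42), CSex4 (0.02 ± 0.31) or Deltaex4 (-1.28 ± 0.40). In NP it rose against KO by 1.35 ± 0.21 in KO-L and 1.09 ± 0.20 in KO-S. The part of these Suz12 levels in the differences between groups was not tested. Whole reads per library were recovered from the deposited means for every member in all 32 libraries. The letters a to d given to libraries below are arbitrary, since the tables do not name them. To compare libraries of different depth, reads were divided by the library's size factor, separately for ESC and NP, and are called scaled reads. Size factors spanned 0.863 to 1.28 in the 18 ESC libraries and 0.806 to 1.53 in the 14 NP libraries. NP WT library a stood apart: its summed neuronal markers (7 of the 8 listed genes, those with reads recovered in all NP libraries) were 4882 scaled reads, against a WT median of 27240. It also had the lowest value of the 4 WT libraries in 45 of the 55 members with reads. This library is in the CSex4, Deltaex4 and KO against WT comparisons of NP. The cluster sums of those comparisons are therefore given below with and without it. Calls of members in KO are also set against WT libraries c and d. Calls of other genes in NP KO against WT are given below for WT libraries a and b alone, apart from Ctcf. In 6 of the 7 ESC tables, all but KO against WT, rows with a single read in WT library a moved the fold change by at most 0.23, against at least 1.05 for other libraries, so these fold changes rest mostly on the other 2 WT libraries.

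The 3 clusters differed in how far they were read in ESC. Over the comparison tables, a mean of at least 10 normalised reads was reached by 0 of 14 alpha members, 1 of 22 beta members and 18 of 22 gamma members in ESC. In NP it was reached by 10 alpha, 21 beta and all 22 gamma members. Averaged over tables and so over genotypes, the summed level in NP was 16.8 times that in ESC for alpha, 37.0 times for beta and 3.49 times for gamma. The tables of ESC and NP were normalised separately, so these ratios were not tested. In such bulk samples, fewer cells of a type and less RNA per cell cannot be told apart.

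**Figure D1:**
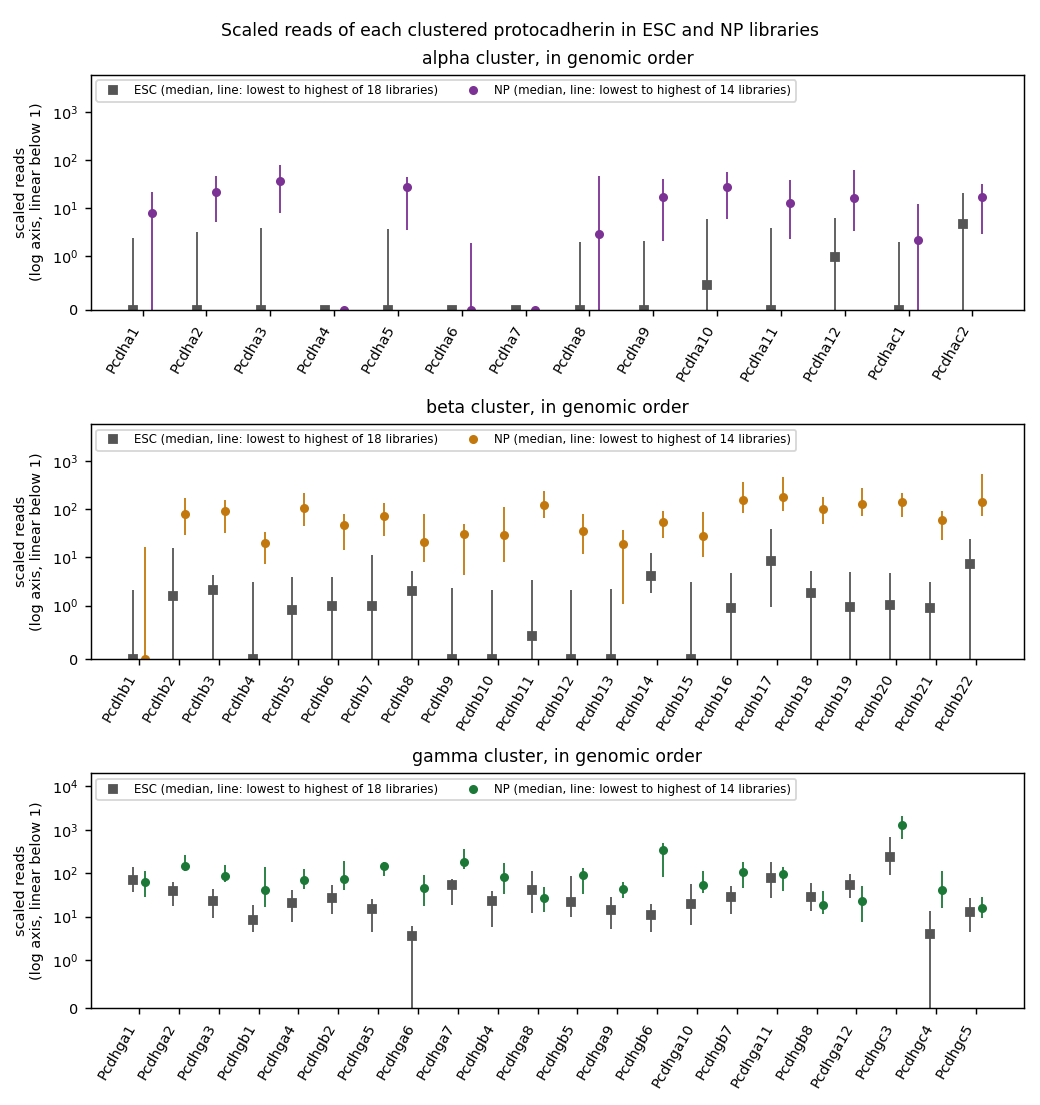
Scaled reads (reads divided by the library size factor, log axis that is linear below 1) of each clustered protocadherin in genomic order, in ESC (squares, 18 libraries) and NP (circles, 14 libraries); symbols are medians and lines run from the lowest to the highest library. Alpha and beta members sit near 0 in ESC, whereas most gamma members are read in every library of both.

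Among alpha members, Pcdhac2, a C-type gene needed for the tiling of serotonergic axons, had the highest level in ESC, with 0 to 20 reads per library. In NP the highest alpha level was that of Pcdha3, with 8 to 100 reads over the 14 libraries. Pcdhac1, the other alpha C-type gene, had at most 2 reads in ESC and 0 to 12 in NP. Pcdha4 and Pcdha7 had no read in any of the 32 libraries, and Pcdha6 had 2 reads in a single NP Deltaex4 library. Thus 3 of 14 alpha genes were unread or barely read in both cell types.

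Beta genes are single exons, so their levels can be set against each other per kb of gene. Averaged over the NP tables, 4 of which hold the KO libraries, Pcdhb22 and Pcdhb17 had the highest levels, with 76.4 and 61.7 normalised reads per kb. This order does not hold in WT, where Pcdhb22 had 107, 181, 196 and 171 scaled reads in libraries a to d and Pcdhb17 had 93.3, 366, 357 and 468. Pcdhb1, the first beta gene, was the least abundant in NP, at 1.77 per kb. In ESC, Pcdhb17 led with 5.08 per kb and Pcdhb22 followed with 2.67 per kb.

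In the gamma cluster Pcdhgc3, a C-type member that promotes dendrite branching, held 15.1% to 46.5% of all gamma reads in ESC libraries and 30.6% to 48.8% in NP libraries. How reads in the constant exons were assigned is not given in the sources used here, so reads of members of 1 gamma or alpha cluster may not be told apart there. Pcdhgb6 had the largest ratio of NP to ESC level within the cluster, 27.7, followed by Pcdhga6 with 18.4 and Pcdhgc4, which supports the survival of neurons, with 14.8. Averaged over all tables and so over genotypes, 5 gamma members had a lower level in NP than in ESC: Pcdhga12 (ratio 0.435), Pcdhga8 (0.492), Pcdhgb8 (0.684), Pcdhga11 (0.888) and Pcdhga1 (0.916). These 5 were named after their values were seen. In WT alone, Pcdhga12 was lower in NP (9.12 to 24.0 scaled reads) than in ESC (45.6 to 50.9), and the ranges of the other 4 overlapped. For Pcdhga11 they were 82.6 to 136 in NP and 86.0 to 106 in ESC. Pcdhgc5, the last gamma gene, had a ratio of 1.41.

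In ESC, no clustered protocadherin passed the authors' test in any of the 7 comparisons with WT. At an adjusted p under 0.05, 0 of 26 tested members were called in KO, where 18.3% of all tested genes were called (11.0% higher). The counts were 0 of 15 in CSex4 (2.41% of all genes called), 0 of 50 in Deltaex4 (0%), 0 of 15 in KO-L (2.23%), 0 of 18 in KO-S (7.91%), 0 of 21 in KO-L3D (18.3%) and 0 of 14 in KO-S3D (3.23%). Few members were tested because most alpha and beta means are low. In Deltaex4, 0.919% of all genes with a mean of at least 10 had an unadjusted p under 0.05. This is fewer than chance gives with no change, so its count of 0 does not show that nothing changed. At an unadjusted p under 0.05, Pcdhgc3 alone was found, in CSex4, KO-L and KO-S, and no member in the other 4 comparisons. The precision at these read numbers was limited: over members with a mean of at least 10, the median SE of the log2 fold change was 0.62 in KO and 0.99 to 1.26 in the other 6 comparisons. Over all members with a fold change, the median log2 fold change in ESC KO was 0.09, beside 0.06 over all genes.

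Pcdhgc3 was read in ESC at 264, 248 and 210 reads in the 3 WT libraries, 709 and 325 in CSex4, 341 and 458 in KO-L, and 360 and 456 in KO-S. The 6 libraries of these 3 groups all lay above the WT libraries. It had 150 and 174 reads in Deltaex4, 315, 213 and 189 in KO, 249 and 151 in KO-L3D, and 142 and 77 in KO-S3D. After scaling, Deltaex4, KO-L3D and KO-S3D lay below all WT libraries, and KO overlapped them. In the authors' deposited tables the log2 fold change against WT was 1.07 ± 0.44 in CSex4 (p = 0.0149, adjusted p = 0.237). The authors' deposited tables gave 0.82 ± 0.41 in KO-L (p = 0.0469, adjusted p = 0.490) and 0.86 ± 0.38 in KO-S (p = 0.0243, adjusted p = 0.166). None of these passed the adjusted threshold.

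Summed over its members, the beta cluster did not overlap WT in 5 of the 7 other ESC groups. Summed beta reads were 50.0 to 53.3 scaled reads in WT, 88.6 to 96.0 in CSex4 and 101 to 108 in KO-L. They were 19.5 to 27.2 in Deltaex4, 24.6 to 25.7 in KO-S and 11.8 to 20.9 in KO-S3D. CSex4 and KO-L thus lay above WT, and Deltaex4, KO-S and KO-S3D lay below it. KO (40.3 to 59.2) and KO-L3D (25.2 to 61.1) overlapped WT. In unscaled reads the 3 WT libraries held 49 to 54, closer together than the counting error of such counts. The KO libraries spanned 40 to 63. Lying outside the WT range is therefore a weak measure here, and how many other genes do so was not counted. Sums of 11 non-clustered protocadherins, single genes elsewhere in the genome, were 62.1 to 127 in WT. They also lay above WT in CSex4 (294 to 697) and KO-L (453 to 656), and below it in KO-S (32.8 to 41.8). Unlike the beta sums, they lay above WT in KO (157 to 258) and overlapped it in Deltaex4 and KO-S3D.

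Alpha sums, in scaled reads, again lay above WT in CSex4 and KO-L, in CSex4 only narrowly. They were 6.53 to 19.4 scaled reads in WT, 21.1 to 33.5 in CSex4 and 32.2 to 37.6 in KO-L. KO-S had 2.05 to 5.36 and KO-S3D 0.981 to 1.16, while Deltaex4, KO and KO-L3D overlapped WT. In unscaled reads CSex4, with 20 to 34, overlapped WT, with 6 to 21, and KO-L had 31 to 36. Sums this small have wide counting error. The gamma sum was 742 to 922 in WT, 1016 to 1502 in CSex4, 1043 to 1137 for KO-L, 990 to 1270 for KO-S, all 3 groups above WT. It was 686 to 721 in Deltaex4 and 532 to 590 in KO-S3D, both below WT, and KO (779 to 901) and KO-L3D (901 to 939) overlapped WT. The KO-S libraries thus lay below WT in alpha and beta sums and above it in gamma sums. Sums over members are a description and were not tested.

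Mesenchymal markers (Col1a1, Col1a2, Col3a1, Twist1), like the alpha and beta sums, lay above WT in CSex4 and KO-L and below it in KO-S3D. They were also below WT in KO-L3D (110 to 154 scaled reads, against 249 to 485), where the alpha and beta sums overlapped WT, and they overlapped WT in Deltaex4 and KO-S, where the beta sums lay below it. Their summed level had a median of 338 scaled reads in WT, 1432 in CSex4 and 2374 in KO-L, and of 221 in Deltaex4, 267 in KO-S and 83.9 in KO-S3D. Of the 4 markers, the 3 collagen genes were called higher in both CSex4 and KO-L. Mesoderm sums too lay above WT (63.1 to 97.0) in CSex4 (223 to 795) and KO-L (362 to 749). So did trophoblast sums (49.0 to 107 in WT, 175 to 204 in CSex4, 209 to 449 in KO-L). Both also lay above WT in KO and KO-L3D, where the alpha and beta sums overlapped it. Germ cell sums overlapped WT in CSex4 and KO-L. Neuronal markers (6 of 8 listed genes with recovered reads) lay at 694 to 1002 in WT, 855 to 961 in CSex4 and 623 to 814 in KO-L, overlapping WT in both. Summed endoderm markers (5 genes) were 2938 to 3991 in KO-S. In WT they were 70.3 and 75.6 in libraries a and b and 1736 in library c, which stood apart. The part of these cell types in the protocadherin sums was not tested.

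**Figure D2:**
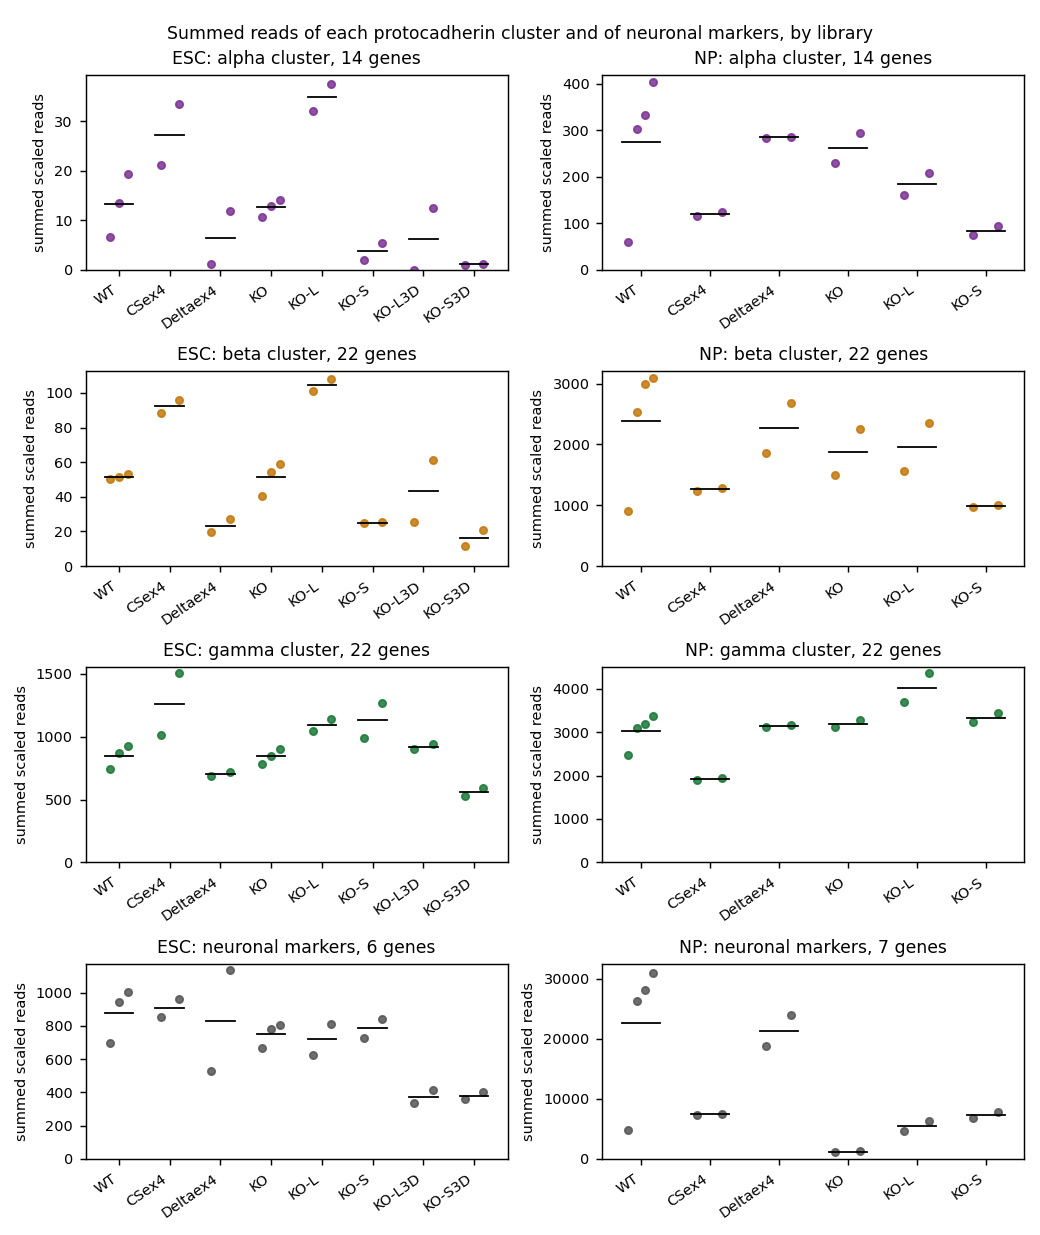
Summed scaled reads of the alpha, beta and gamma protocadherin clusters and of neuronal marker genes in each ESC library (left) and NP library (right) by genotype; points are libraries and lines are group means, each panel with its own linear axis from 0. In ESC, CSex4 and KO-L lie above WT in alpha (CSex4 only narrowly) and beta. In NP, WT library a lies far below the other WT libraries.

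The beta member with the highest level in ESC, Pcdhb17, had 13, 32 and 14 reads in WT, 25 and 29 in CSex4, 30 and 38 in KO-L, and 7, 14 and 10 in KO. In Deltaex4, KO-S, KO-L3D and KO-S3D it had 1 to 6 reads in each library, below all WT libraries. Pcdhac2 had 6, 5 and 2 reads in WT, 20 and 17 in KO-L, 14, 8 and 12 in KO, and 7 and 8 in CSex4. It had at most 2 reads in each Deltaex4, KO-S and KO-S3D library, and in KO-L3D it had 6 and 0. Counts this small have wide counting error, and neither gene was called. Pcdhgc4 (0 to 13 reads) and Pcdhgc5 (4 to 30 reads) overlapped between most groups.

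Differences between pairs of ESC comparisons were tested for the members with a mean of at least 10 in both. Of 19 members, 0 differed between KO-L and KO-S (3.94% of all genes did), 0 of 19 between KO-L and KO-L3D (4.88%), and 0 of 19 between KO-S and KO-S3D (0.732%). Between CSex4 and Deltaex4 0 of 18 differed (0.0766%), and between KO of ESC and KO of NP 0 of 19 (14.3%). For Pcdhgc3, the fold change in KO-S exceeded that in KO-S3D by 1.93 (95% interval 0.59 to 3.26, adjusted p = 0.259), and that in KO-L exceeded KO-L3D by 1.29 (0.08 to 2.49, adjusted p = 0.245). Between KO-L and KO-S the difference in Pcdhgc3 was -0.04 (-1.14 to 1.06). The ESC pairs share the WT libraries, and with a correlation of 0.5 assumed between the comparisons Pcdhgc3 was called in the pair of KO-L and KO-L3D and in that of KO-S and KO-S3D.

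The exon 4 alleles were compared in NP next. No member was called in CSex4 (0 of 49 tested, 5.53% of all genes called) or in Deltaex4 (0 of 53, 0.0809%). In Deltaex4, 2.51% of all genes with a mean of at least 10 had an unadjusted p under 0.05. This is fewer than chance gives with no change, so the count of 0 there does not show that nothing changed. At an unadjusted p under 0.05, 2 members were lower in CSex4, Pcdhgb6 and Pcdhgc3, and none in Deltaex4. Over members with a mean of at least 10, 13 of 50 had a log2 fold change above 0 in CSex4, with a median of -0.33, beside -0.03 over all genes at that level. In Deltaex4, 36 of 51 were above 0, with a median of 0.34, beside 0.001 over all genes at that level. Both comparisons share WT libraries a and b, and library a had the lowest WT value in 45 of the 55 members with reads. These counts were not redone without library a. In Deltaex4 their direction may rest on it. The CSex4 cluster sums, given below, lay further under WT without library a, and how far the CSex4 counts depend on it was not tested.

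Pcdhgb6 had 83 and 78 reads in NP CSex4, 431 and 342 in Deltaex4, and 148, 374, 515 and 346 in WT libraries a to d. The CSex4 libraries lay below all 4 WT libraries, while Deltaex4 overlapped WT. In the authors' deposited table its log2 fold change in CSex4 was -1.38 ± 0.55 (p = 0.0125, adjusted p = 0.144). Pcdhgc3 had 689 and 560 reads in CSex4, 1242 and 1474 in Deltaex4, and 1212, 1499, 1928 and 1287 in WT, again with CSex4 below every WT library. Its log2 fold change in CSex4 in the authors' deposited table was -0.95 ± 0.34 (p = 0.00543, adjusted p = 0.0810). The difference between the CSex4 and Deltaex4 fold changes was -2.19 for Pcdhgb6 (95% interval -3.71 to -0.67) and -1.06 for Pcdhgc3 (-1.99 to -0.13). Neither passed after adjustment over all genes (adjusted p = 0.138 and 0.345), and 0 of 50 members did, beside 1.78% of all genes.

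Summed scaled reads in NP CSex4 were 116 to 124 for alpha, 1241 to 1277 for beta and 1891 to 1940 for gamma. Only in gamma did both CSex4 libraries lie below all 4 WT libraries (2483 to 3378), since WT library a had 60.4 alpha and 913 beta scaled reads. On the log2 scale the CSex4 sums against WT libraries a and b were -0.71 for alpha, -0.67 for beta and -0.61 for gamma. Without WT library a, which leaves library b alone, they were -1.47, -1.30 and -0.82, and against libraries b, c and d they were -1.53, -1.19 and -0.75. For Deltaex4 the same ratios were 0.53, 0.17 and 0.10 with libraries a and b, -0.23, -0.45 and -0.10 with b alone, and -0.28, -0.34 and -0.03 with b, c and d, so their direction rests on that library.

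Some summed cell type markers in NP CSex4 lay apart from WT, and others overlapped it. Summed neuronal markers were 7321 to 7494 scaled reads in CSex4, 18760 to 23938 in Deltaex4 and 4882 to 31027 in WT. Summed pluripotency markers were 32062 to 32493 in CSex4 and 1130 to 8457 in WT, and 5 of 5 were called higher. Germ cell (2543 to 2753, against 72.3 to 1067), mesoderm (1060 to 1088, against 162 to 524) and glia sums (131 to 139, against 56.0 to 106) also lay above WT. Neural progenitor sums (2332 to 2358) lay below WT (3758 to 10951). Neuronal, endoderm, mesenchymal and trophoblast sums in CSex4 overlapped WT. The part of cell type makeup in the lower protocadherin reads was not tested.

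In NP of the Suz12 knock-out, summed neuronal markers were 1059 to 1356 scaled reads, below every WT library. The summed gamma reads overlapped WT, and for alpha and beta the overlap rests on WT library a alone. Summed gamma reads were 3118 to 3274 in KO and 2483 to 3378 in WT. Summed beta reads were 1503 to 2255 in KO and 913 to 3100 in WT, and summed alpha reads were 229 to 293 in KO and 60.4 to 402 in WT. WT libraries b, c and d had at least 302 alpha and at least 2533 beta scaled reads, above both KO libraries. Against WT libraries a and b the KO sums were 0.41, -0.09 and 0.13 on the log2 scale for alpha, beta and gamma, against library b alone they were -0.35, -0.72 and -0.08, and against libraries b, c and d -0.41, -0.61 and -0.01.

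The same 2 KO libraries were compared with 2 different pairs of WT libraries. Against WT libraries a and b, 2 of 53 tested members were called, both higher in KO (21.4% of all genes were called, 11.6% higher and 9.85% lower). Against WT libraries c and d, 6 of 55 members were called, 5 higher in WT and 1 lower (32.9% of all genes, 15.6% higher and 17.3% lower in WT). Both shares lay below those of all genes. Across both comparisons, 1 member was called in the same direction, Pcdhb22.

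Pcdhb22, the last beta gene, had 308 and 491 reads in KO and 120, 186, 301 and 171 in WT libraries a to d. After scaling, both KO libraries lay above all 4 WT libraries. In the authors' deposited tables its log2 fold change was 1.58 ± 0.53 in KO against WT (adjusted p = 0.0168) and -1.18 ± 0.43 in WT against KO (adjusted p = 0.0202). Pcdha8, a variable alpha gene, had 47 and 26 reads in KO, against 1, 3, 5 and 7 in WT and at most 9 in every other NP library. It rose by 4.47 ± 1.50 on the log2 scale in KO against WT in the authors' deposited table (adjusted p = 0.0173). With WT libraries c and d, WT against KO, the authors' deposited table gave -2.96 ± 1.23 (adjusted p = 0.0501), just outside the threshold.

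Pcdhb1 was read almost only in the KO libraries, at 16 and 8 reads, while the 12 other NP libraries had 0 to 2. Its adjusted p was 0.0993 in WT against KO in the authors' deposited table, and it had none in KO against WT. Pcdhgb1 had 137 and 74 reads in KO and 45 to 67 in WT, and Pcdhga7 had 359 and 296 in KO and 151 to 320 in WT. Scaled, both KO libraries exceeded all WT libraries for each gene, but neither was called in either comparison with WT. Pcdhb1 and these 2 genes were picked in this comparison after their values were seen.

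The 5 members called higher in WT against KO were 4 beta genes and Pcdhgb6. Pcdhb10 had 8 and 19 reads in KO and 87 and 113 in WT libraries c and d. Its log2 fold change in the authors' deposited table was 2.59 ± 0.84 (adjusted p = 0.00806). The KO libraries overlapped WT library a, which had 16 reads.

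Pcdhb5 had 45 and 57 reads in KO and 312 and 223 in WT c and d, with a log2 fold change of 1.97 ± 0.54 (adjusted p = 0.00132) in the authors' deposited table. Pcdhb17 had 91 and 139 reads in KO and 548 and 468 in WT c and d, a log2 fold change of 1.76 ± 0.42 (adjusted p = 0.000179) in the authors' deposited table. Pcdhb19 had 71 and 110 reads in KO and 317 and 250 in WT, a log2 fold change of 1.26 ± 0.50 (adjusted p = 0.0360) in the authors' deposited table. For each of these 3 genes WT library b also lay above both KO libraries (180, 377 and 290 reads). WT library a, with 55.1, 93.3 and 99.5 scaled reads, lay between the 2 KO libraries for each of them (45.5 and 64.5, 91.9 and 157, 71.7 and 124).

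Pcdhgb6 had 98 and 119 reads in KO, against 515 and 346 in WT c and d, a log2 fold change of 1.56 ± 0.44 (adjusted p = 0.00208) in the authors' deposited table. WT libraries a and b had 148 and 374 reads, and KO against that pair gave -0.92 ± 0.61 (adjusted p = 0.311) in the authors' deposited table. Of the 26 calls of members in all comparisons, the 8 in these 2 tables can be checked against the other WT pair, and 2 of the 8 held. Both are calls of 1 gene, Pcdhb22, counted once per table with the same 2 KO libraries. C-type genes were not called: Pcdhgc3 had 992 and 1054 reads in KO, Pcdhgc4 63 and 99 against 18 to 60 in WT, Pcdhgc5 16 and 14, Pcdhac1 1 and 3, and Pcdhac2 21 and 19.

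**Figure D3:**
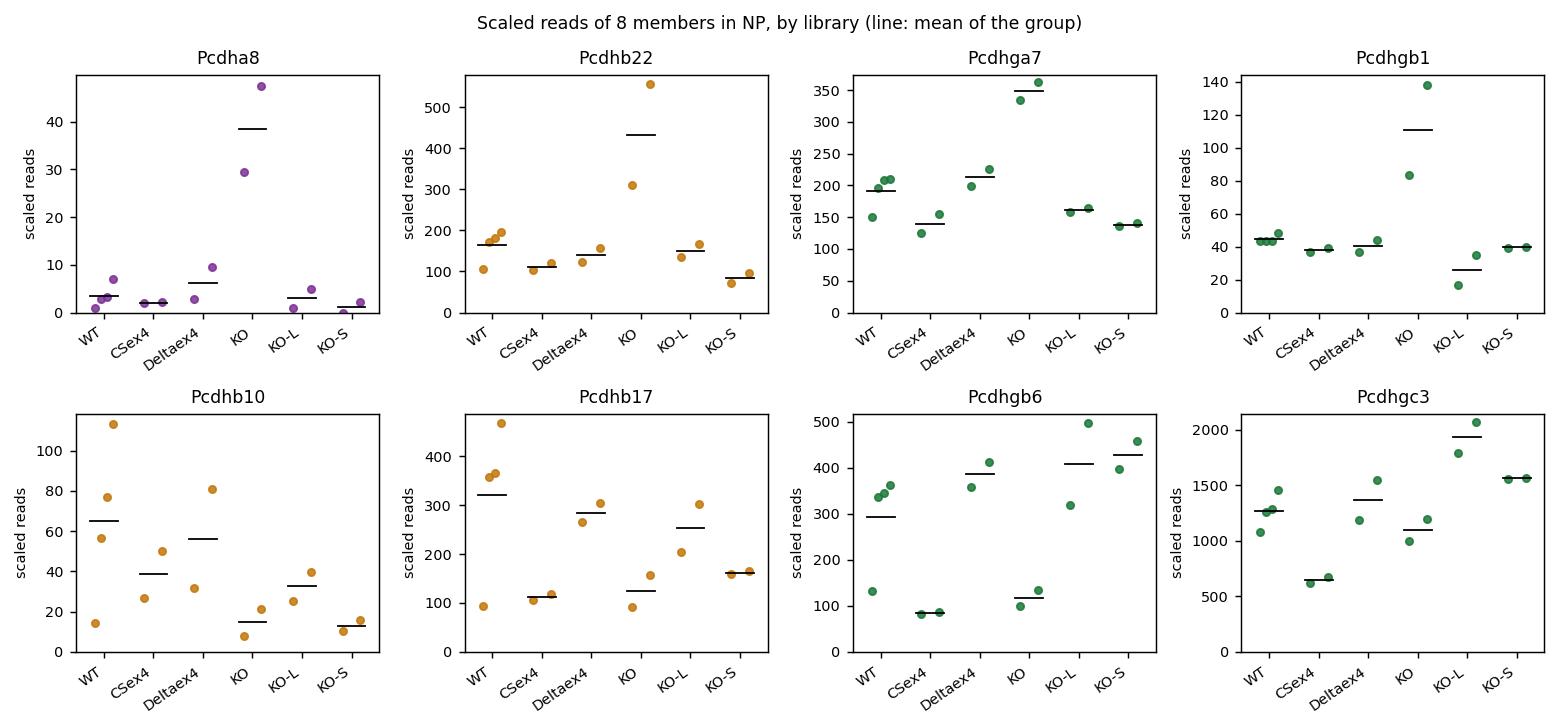
Scaled reads of 8 clustered protocadherins in each NP library by genotype; points are libraries, lines are group means and each panel has its own linear axis from 0. Pcdha8, Pcdhb22, Pcdhga7 and Pcdhgb1 are highest in KO, whereas Pcdhgb6 is low in KO, CSex4 and WT library a.

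The rescues with the long or the short isoform were compared with KO. In KO-L against KO, 8 of 53 tested members were called, 4 higher and 4 lower, where 24.7% of all genes were called (10.9% higher, 13.8% lower). In KO-S against KO, 10 of 52 were called, 2 higher and 8 lower, where 34.5% of all genes were called (16.4% higher, 18.0% lower). The median log2 fold change over members was 0.09 with KO-L, -0.82 with KO-S, beside -0.01 and -0.04 over all genes. Both comparisons share the 2 KO libraries, so the values of those libraries enter both.

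**Figure D4:**
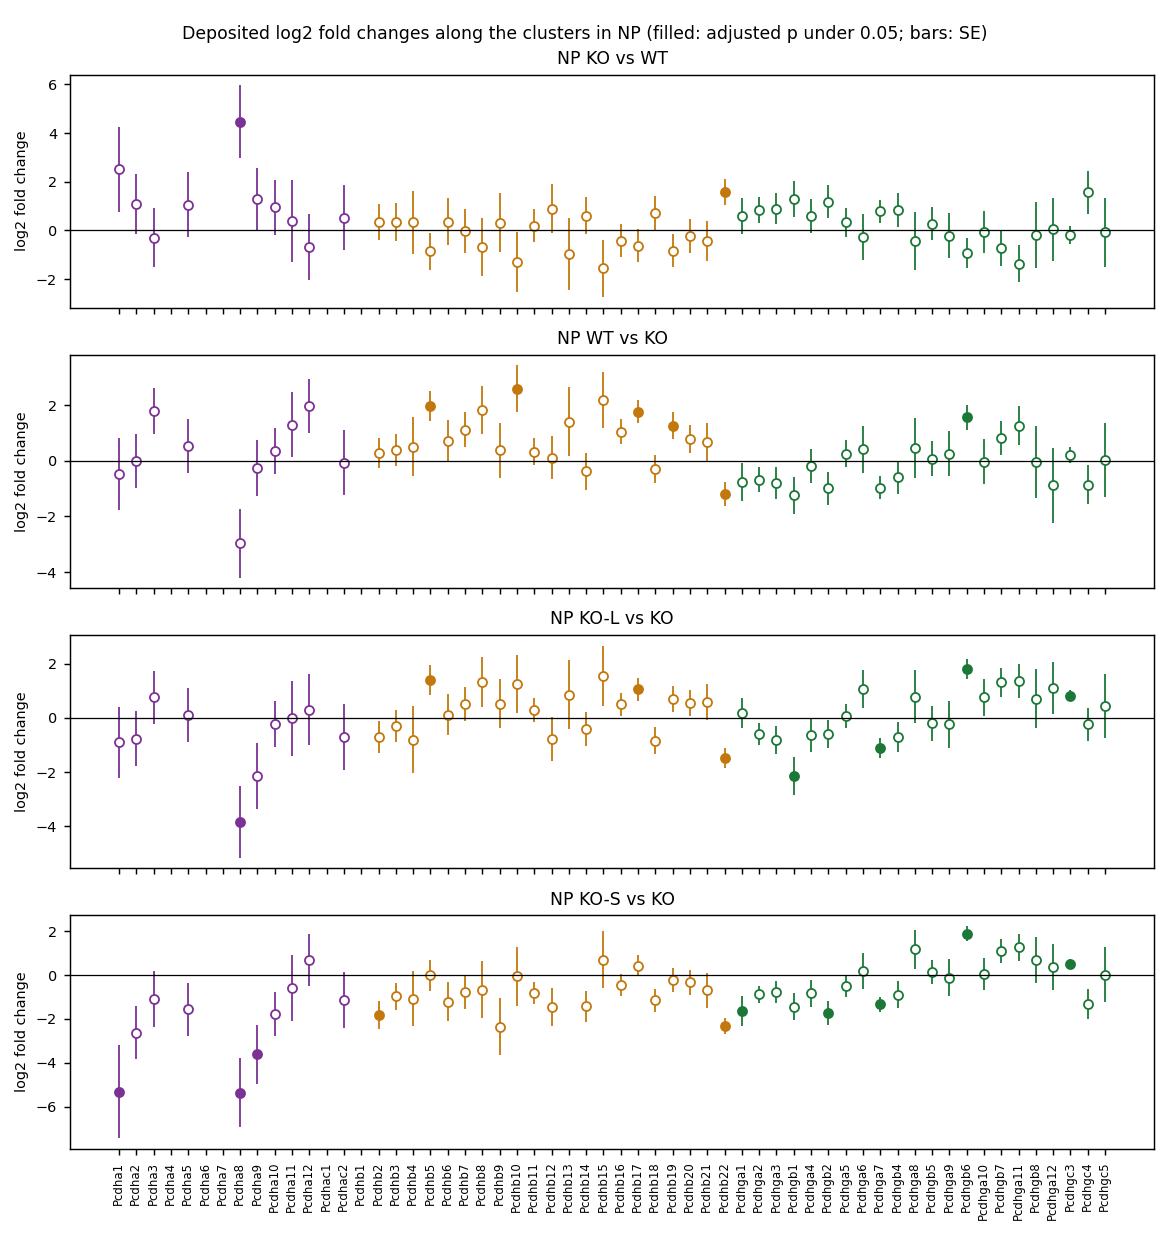
Log2 fold changes with SE bars from the authors' deposited tables for members with a mean of at least 10 reads or an adjusted p under 0.05, in genomic order, in 4 NP comparisons; filled points passed an adjusted p of 0.05. In KO-L and KO-S against KO the first gamma genes lie mostly below 0 and later ones from Pcdhgb6 to Pcdhga12 mostly above.

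The members lower in both rescues were led by Pcdha8 and Pcdhb22. Pcdha8 had 1 and 4 reads with KO-L, 0 and 2 with KO-S, against 47 and 26 in KO. The authors' deposited tables gave log2 fold changes of -3.83 ± 1.33 for KO-L (adjusted p = 0.0194) and -5.35 ± 1.59 for KO-S (adjusted p = 0.00354). Pcdhb22 had 128 and 134 reads with KO-L, 71 and 91 with KO-S, against 308 and 491 in KO. By the authors' deposited tables it fell by 1.48 ± 0.36 with KO-L (adjusted p = 0.000376) and fell by 2.32 ± 0.36 with KO-S (adjusted p = 2.42e-09). In both genes no rescue library reached a KO library.

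Pcdhga7, a variable gamma gene of the A type, had 151 and 132 reads with KO-L, 138 and 128 with KO-S, against 359 and 296 in KO. The authors' deposited tables listed it at -1.11 ± 0.37 for KO-L (adjusted p = 0.0132) and -1.33 ± 0.36 for KO-S (adjusted p = 0.000991). Pcdhgb1 had 16 and 28 reads with KO-L, 39 and 37 with KO-S, against 137 and 74 in KO. The authors' deposited table for KO-L gave -2.14 ± 0.71 (adjusted p = 0.0137), and it was not called in KO-S. The KO-L libraries of Pcdhgb1 also lay below all 4 WT libraries (45 to 67 reads).

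Another 5 members were called lower in KO-S and not in KO-L. The alpha genes were Pcdha1, with 1 and 0 reads in KO-S against 17 and 19 in KO, and Pcdha9, with 2 and 3 against 23 and 36. In the authors' deposited table Pcdha9 fell by 3.60 ± 1.35 (adjusted p = 0.0249) and Pcdha1, whose mean was under 10, by 5.32 ± 2.11 (adjusted p = 0.0365). Pcdhb2 had 29 and 29 reads in KO-S against 100 and 99 in KO, a fall by 1.82 ± 0.64 (adjusted p = 0.0157) in the authors' deposited table.

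The gamma genes of this group were Pcdhga1, with 27 and 28 reads in KO-S against 97 and 72 in KO, and Pcdhgb2, with 43 and 39 against 187 and 92. Pcdhga1 fell by 1.64 ± 0.68 (adjusted p = 0.0470) and Pcdhgb2 by 1.72 ± 0.56 (adjusted p = 0.00855) in the authors' deposited table. For Pcdha1, Pcdha9, Pcdhb2, Pcdhga1 and Pcdhgb2 alike, both KO-S libraries lay below both KO libraries. In KO-L, Pcdhga1 had 97 and 81 reads, close to KO. For Pcdha1, Pcdha9, Pcdhb2 and Pcdhgb2, both KO-L libraries also lay below both KO libraries in scaled reads. Pcdhb2, for instance, had 51.5 and 81.9 scaled reads in KO-L against 101 and 112 in KO. Pcdhgb2 had 95.7 and 89.4 against 189 and 104.

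The members higher in both rescues were Pcdhgb6 and Pcdhgc3. Pcdhgb6 had 303 and 400 reads with KO-L, 389 and 433 with KO-S, against 98 and 119 in KO. Its rise in the authors' deposited tables was 1.79 ± 0.37 for KO-L (adjusted p = 1.39e-05) and 1.89 ± 0.35 for KO-S (adjusted p = 5.69e-07). Pcdhgc3 had 1708 and 1669 reads with KO-L, 1535 and 1472 with KO-S, against 992 and 1054 in KO. By the authors' deposited tables the gain was 0.82 ± 0.22 for KO-L (adjusted p = 0.00125) and 0.52 ± 0.20 for KO-S (adjusted p = 0.0327). All 4 rescue libraries lay above both KO libraries for each gene.

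In KO-L alone, 2 beta genes were called higher. Pcdhb5 had 111 and 137 reads in KO-L against 45 and 57 in KO, a log2 fold change of 1.38 ± 0.55 (adjusted p = 0.0481) in the authors' deposited table. Pcdhb17 had 195 and 244 reads against 91 and 139, a log2 fold change of 1.05 ± 0.42 (adjusted p = 0.0470) in the authors' deposited table. In KO-S, Pcdhb5 had 61 and 44 reads and Pcdhb17 had 162 and 150.

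The difference between the isoforms was tested for 51 members, and 0 passed (10.3% of all genes did). The lowest p was that of Pcdhga1, whose fold change was 1.82 higher in KO-L (95% interval 0.10 to 3.54, adjusted p = 0.207). For Pcdhb22 the difference was 0.84 (-0.16 to 1.84), for Pcdhgb6 -0.10 (-1.09 to 0.89) and for Pcdhgc3 0.30 (-0.28 to 0.88). These intervals leave room for differences of about the size of many of the changes themselves. The 2 comparisons share the KO libraries, and with a correlation of 0.5 between them Pcdhga1 was called.

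The cluster sums of the rescues stood as follows. Summed beta reads were 1563 to 2359 scaled reads for KO-L, 977 to 1007 for KO-S, and KO, at 1503 to 2255, overlapped KO-L and lay above KO-S. Summed alpha reads were 161 to 207 for KO-L, 74.6 to 93.3 for KO-S, both below the 229 to 293 of KO. Summed gamma reads were 3685 to 4366 in KO-L, above KO and all WT libraries, and 3222 to 3440 in KO-S. The KO-S libraries were therefore lowest in alpha and beta, and KO-L highest in gamma, among the KO and rescue groups.

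Neuronal markers rose in both rescues, 7 of 8 called in KO-L (10.9% of all genes higher) and 8 of 8 in KO-S (16.4%), to sums of 4645 to 6237 and 6819 to 7764 scaled reads. Summed mesenchymal markers were 19501 to 21226 in KO-L, against 1552 to 6964 in the other NP groups. Summed pluripotency markers were 14882 to 22207 for KO-L, 2339 to 2959 for KO-S. KO-S, with more neuronal marker reads than KO, had fewer alpha and beta protocadherin reads than KO. The part of cell type makeup in these member changes was not tested.

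Along the gamma cluster the direction of the change followed the gene order. Over all 22 gamma members, Spearman's rho between genomic order and log2 fold change was 0.56 in KO-L against KO and 0.58 in KO-S against KO. The first 11 genes, up to Pcdhga8, had medians of -0.61 (KO-L) and -0.88 (KO-S) for these fold changes, and the other 11 had 0.75 and 0.36. In KO against WT rho was -0.46, and in WT against KO it was 0.34. This description was chosen after values were seen, neighbouring genes share constant exons, and the 4 comparisons share the KO libraries, so no p is given.

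In the beta cluster rho was 0.05 for KO-L (21 members), 0.19 for KO-S (20 members). The alpha members with a mean of at least 10 were 10 for KO-L, 9 for KO-S, with rho of 0.20 and 0.45. In NP CSex4 against WT, rho was -0.93 over 7 alpha members, with medians of 0.42 for the first 3 genes (Pcdha2, Pcdha3 and Pcdha5) and -1.66 for the last 4, and it was -0.52 over 21 beta members. The direction of those first 3 genes rests on WT library a, which lay below both CSex4 libraries for each of them, while WT libraries b, c and d lay above. Pcdha3, for instance, had 46.2 and 35.7 scaled reads in CSex4 and 8.00, 75.8, 65.2 and 78.0 in WT libraries a to d.

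Region lists from ChIP-seq of ESC, deposited for H3K27me3 (6882 regions) and Suz12 (2865 regions), were read next for the gene starts of the members. The lists do not say which groups were contrasted or in which direction a region changed, so they are used only for position. Within 2500 bp of the gene start, 48 of 58 members had an H3K27me3 region (18.1% of all protein-coding genes did). These were 11 of 14 alpha, 17 of 22 beta and 20 of 22 gamma members. A Suz12 region lay within 2500 bp of 15 of 58 members (9.28% of all protein-coding genes): 8 alpha, 0 beta and 7 gamma. A start inside a region was found for 29 members with H3K27me3 (14.4% of protein-coding genes) and for 9 with Suz12 (8.54%).

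The beta cluster thus held 23 listed H3K27me3 regions and no listed Suz12 region, which does not show that Suz12 was absent there. The H3K27me3 region values (p or adjusted p, which is not stated) ran from 1.38e-24 to 6.24e-05 in beta. They ran from 7.57e-69 to 2.24e-10 in alpha and from 7.33e-72 to 1.09e-06 in gamma. Its H3K27me3 regions covered 20.9% of the 256.4 kb cluster, with a median width of 2026 bp. The alpha cluster held 7 H3K27me3 regions (21.7% covered, median width 6925 bp) and 8 Suz12 regions (7.44% covered). The gamma cluster held 18 H3K27me3 regions (36.2% covered) and 7 Suz12 regions (10.4% covered). The nearest Suz12 region to Pcdhb1 was 119631 bp away.

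**Figure D5:**
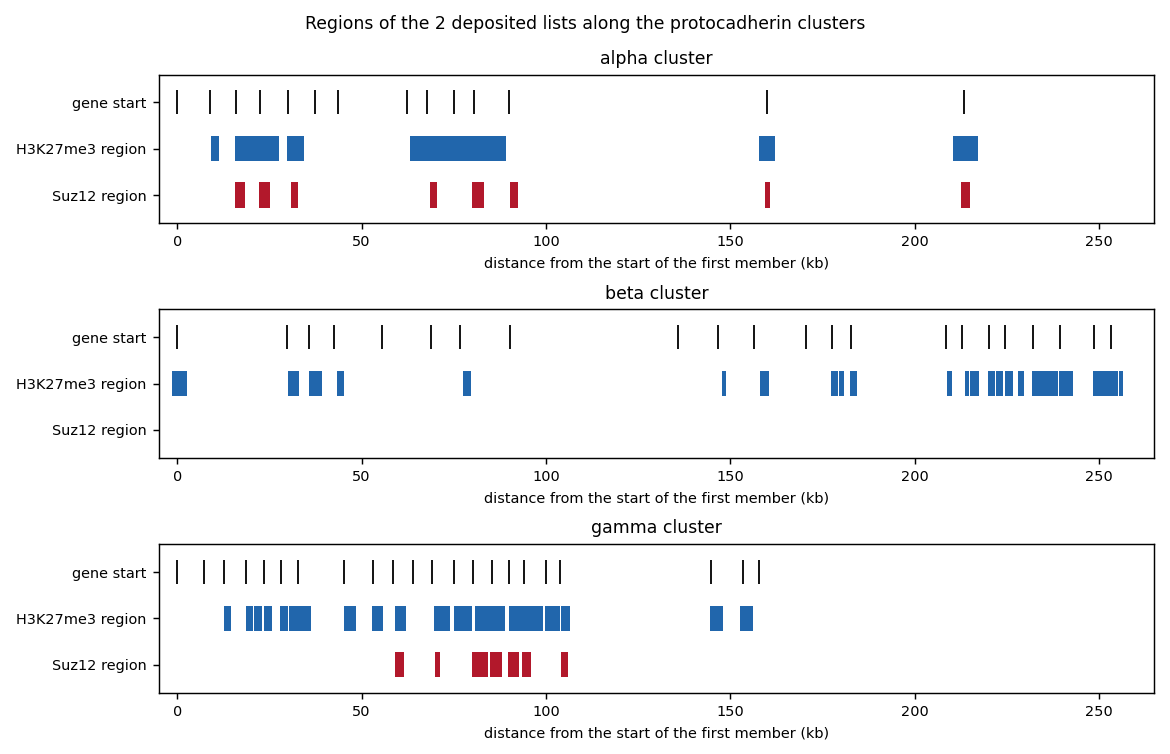
Gene starts (black) and regions of the deposited H3K27me3 (blue) and Suz12 (red) lists along each cluster, against the distance in kb from the start of its first member. The beta cluster has 23 H3K27me3 and 0 Suz12 regions, and the gamma Suz12 regions lie between Pcdhgb4 and Pcdhga12.

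The C-type genes of the alpha cluster had both kinds of region over their start. The Pcdhac2 start at 37143678 lay in an H3K27me3 region at 37140578 to 37147502 and in a Suz12 region at 37142892 to 37145367. The Pcdhac1 start at 37090136 lay in an H3K27me3 region at 37088004 to 37092258 and in a Suz12 region at 37089587 to 37091155. Of the gamma C-type genes, Pcdhgc3 and Pcdhgc4 started inside an H3K27me3 region, and the nearest Suz12 region was 38592 bp and 47261 bp away. The Pcdhgb6 start at 37742094 lay inside a Suz12 region at 37741714 to 37746010 and 315 bp from an H3K27me3 region. Pcdha8 started 789 bp from an H3K27me3 region, and Pcdhb22 started inside one.

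Of the 48 members with an H3K27me3 region within 2500 bp, 24 were tested in ESC KO against WT and 0 were called. Their median log2 fold change there was -0.06. Genome-wide, 26.7% of 2212 tested genes that start inside an H3K27me3 region, and 31.2% of 1321 that start inside a Suz12 region, were called higher in ESC KO. The corresponding counts of members were 0 of 14 and 0 of 5. In ESC KO the alpha and beta members stayed at the low read numbers of WT, so a rise of a few reads would not have been detectable. In NP KO against WT, 45 of the 48 were tested and 2 were called, both higher (21.4% of all genes were called, 11.6% higher). In NP WT against KO, with WT libraries c and d, 47 were tested, and 4 were called higher and 1 lower in WT (15.6% and 17.3% of all genes).

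Factors that act on these promoters were read from a list of 21 genes. In NP KO against WT, 9 of 21 were called lower and 0 higher, beside 9.85% and 11.6% of all genes. They included the cohesin genes Smc1a (-1.29 ± 0.34, adjusted p = 0.00123) and Smc3 (-1.02 ± 0.35, adjusted p = 0.0199), the cohesin loader Nipbl (-1.56 ± 0.34, adjusted p = 5.83e-05) and the DNA methyltransferase Dnmt1 (-1.24 ± 0.35, adjusted p = 0.00363), as log2 fold changes in the authors' deposited table. In KO-S against KO, 13 were called higher (16.4% of all genes were) and 1 lower (18.0%), the de novo methyltransferase Dnmt3b (-0.55 ± 0.22, adjusted p = 0.0390, in the authors' deposited table). In KO-L against KO, 2 were called (24.7% of all genes), Rad21 (cohesin) and Tet1 (oxidation of 5-methylcytosine), both higher. In ESC KO, 4 of 21 were called (18.3% of all genes), each lower: Stag2, Pds5a, Smchd1 and Ehmt1. CTCF's gene Ctcf was called only in NP WT against KO (0.63 ± 0.26, adjusted p = 0.0473, in the authors' deposited table).

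Non-clustered protocadherins, single genes elsewhere in the genome, gave another comparison. In NP KO against WT, 5 of 11 tested were called, 1 higher and 4 lower (21.4% of all genes, 11.6% higher and 9.85% lower). Pcdh7 rose by 1.24 ± 0.39, and Pcdh8 fell by 2.45 ± 0.57, Pcdh10 by 1.83 ± 0.59, Pcdh18 by 1.65 ± 0.40 and Pcdh19 by 1.40 ± 0.45 on the log2 scale in the authors' deposited table. The clustered genes had 2 of 53 in the same comparison. In ESC, Pcdh18 rose in CSex4 (3.05 ± 0.76, adjusted p = 0.00659) and in KO-L (2.67 ± 0.72, adjusted p = 0.0154) in the authors' deposited tables, and Pcdh19 rose in KO (1.43 ± 0.41, adjusted p = 0.00455). The difference between the 2 families was not tested.

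Of 13 genes for partners and processing of the proteins, 3 of 13 tested were called in NP KO against WT, a share near the 21.4% of all genes. Ptk2b, a kinase that binds protocadherin tails, rose by 2.14 ± 0.51 (adjusted p = 0.000369), while Ret, a receptor kinase, fell by 1.22 ± 0.41 (adjusted p = 0.0176) in the authors' deposited table. Nlgn1, a synaptic adhesion gene, fell by 2.98 ± 0.87 (adjusted p = 0.00517) in the authors' deposited table. In KO-L, Adam10, a protease that sheds protocadherins, fell by 0.89 ± 0.21 (adjusted p = 0.000141) in the authors' deposited table. With KO-S the authors' deposited table listed it at -0.64 ± 0.17 (adjusted p = 0.000975).

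Genes that flank the clusters were read from a list of 16 neighbours. In NP KO against WT, 1 of 16 was called (21.4% of all genes): Cd14, which rose by 2.12 ± 0.70 (adjusted p = 0.0155) in the authors' deposited table. By the authors' deposited tables, Cd14 fell in both rescues, with -2.97 ± 0.64 for KO-L (adjusted p = 3.79e-05) and -1.38 ± 0.54 for KO-S (adjusted p = 0.0324). In KO-S, Taf7, a general transcription factor gene, fell by 0.79 ± 0.18 (adjusted p = 0.000135) in the authors' deposited table. Summed scaled reads of the 6 neighbours with recovered ESC reads were 673 to 842 in WT. KO (525 to 611), KO-L3D (518 to 600) and KO-S3D (532 to 636) lay below that range. CSex4 (940 to 1625), Deltaex4 (874 to 878) and KO-S (879 to 933) lay above it, and KO-L overlapped it. In NP, where 10 neighbours had recovered reads, KO-L (5023 to 5212) lay above WT (4196 to 4407). These sums were not tested.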

How the data were processed

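The authors' 13 deposited comparison tables give, per gene symbol, baseMean (a signal: mean of reads over size factors), log2 fold change and its SE, a test score (stat) and a p-value with its adjusted value, per the file headers. Column names match DESeq2, and the submitters' processing notes name TopHat, Bowtie, DESeq2, DiffBind and mm10. Aligner settings and gene counting are not given in the sources used here. A call means a deposited adjusted p below 0.05; nothing was refitted, although tests on counts had been allowed for.

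Tables summed to 26085140 to 31499803 normalised reads. Whole reads were solved from baseMean and the size factors, and all 1856 of 1856 member values came out whole (100%); the method was tested on simulated data. Intervals of differences (95%) combine the deposited SEs as if independent, with Benjamini-Hochberg adjustment over all genes with baseMean of at least 10. Region values lie between 0 and 1 at an FDR of 5 percent, per the file headers.

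Members and gene lists were chosen with earlier results of these data known. Always named were the C-type members, the highest member of each cluster, and up to 3 called rises and 3 falls per cluster and comparison with baseMean of at least 10. Pcdhb1 and Pcdha1, Pcdhb19 in its description, and Pcdhga7 and Pcdhgb1 against WT were added after seeing values. Software was Python 3.11.15, pandas 2.3.3 and SciPy 1.17.1.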

Additional observations from a re-analysis of the deposited data

Results flagged for a closer look

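Among the 4 NP WT libraries, 7 members had a highest or lowest library far from the other 3. Chance alone gives about 1 in 20 such cases, and 55 members and 3 cluster sums were checked. Library a was lowest, in scaled reads, for Pcdha5 at 3.55, Pcdhb4 at 9.77, Pcdhb6 at 16.9 and Pcdhgb6 at 131. Library b was lowest for Pcdhgb4 at 56.3. Pcdhgb1 was highest in library d at 48.0, with the other 3 libraries near each other, and Pcdhb1 was highest at 0.652, a single read. Among these 7 members, Pcdhgb6 and Pcdhgb1 were called in a comparison.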

How the results depend on the processing

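The counts of called members rest on the threshold. At an adjusted p under 0.01 the counts were 0 in NP KO against WT, 3 in KO-L and 5 in KO-S. At an adjusted p under 0.1 they were 1 in NP CSex4, 13 in NP WT against KO and 16 in KO-S. The other WT pair gave 6 in place of 2 members in KO against WT. Of 26 calls, 12 held at 0.01 and 23 with adjustment over every gene with a p-value. With a correlation of 0.5 between comparisons, differences were called for 1 member in ESC KO-L and KO-L3D, 1 in ESC KO-S and KO-S3D (Pcdhgc3 in both), 2 in NP CSex4 and Deltaex4 (Pcdhgb6, Pcdhgc3) and 1 in NP KO-L and KO-S (Pcdhga1). Inside a region itself lay the starts of 29 members for H3K27me3 and 9 for Suz12. Of 83 alternative values of these counts, 70 stayed within 1.5 times. Part of these were fixed in advance, so the share says little about stability. Where the main count was 0, as in every ESC comparison and in NP CSex4 and Deltaex4, a stricter setting could only give 0 again. Leaving out NP WT library a, an alternative added after seeing the data, turned the direction of cluster sums of KO (alpha, gamma) and of Deltaex4 (all 3).

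No paired analysis was possible because the tables hold the authors' own comparisons without sample names or replicate numbers. The deposited tests were not refitted without each replicate; only the cluster sums were recomputed without a library. Low reads of alpha and beta members limit ESC comparisons.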
